A study of Mus musculus with 6 samples.

Results

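*Aqp4*, the gene of the main water channel of astrocytes, was described together with 8 genes of the dystrophin complex that anchors the channel. The 9 genes (*Aqp4*, *Dmd*, *Dag1*, *Sntb1*, *Sntb2*, *Dtna*, *Dtnb*, *Utrn* and *Agrn*) were taken by symbol from a table of 34745 genes, and each symbol stood in 1 row. All 9 passed a filter on low values that left 14147 genes for testing. RNA from whole cerebral cortex of mice at postnatal day 8 was sequenced in 3 Pen-2 cKO and 3 Control libraries. Pen-2 cKO mice had the genotype Pen-2 F/F; hGFAP-Cre, and Control mice had the genotype Pen-2 F/F, so every library carried floxed Pen-2 alleles. Cre was listed for the cKO group alone, and deletion and transgene cannot be told apart. The human GFAP promoter drives this Cre, and lines of this name are known to recombine in radial glia of the embryonic forebrain, which give rise to cortical neurons as well as astrocytes. The labels do not state whether each library was a separate animal, so the p-values reflect how much these libraries varied, and that variation may be technical.

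AQP4 sits in the membrane of astrocyte endfeet, the processes that wrap brain vessels and line the brain surface, where it lets water cross between blood, brain and cerebrospinal fluid. It is held there by a chain of proteins: a syntrophin binds the channel, dystrophin and dystrobrevin bind the syntrophin, and dystrophin binds dystroglycan, which spans the membrane and attaches to agrin and laminin in the basement membrane. PEN-2, the product of *Psenen*, is a subunit of γ-secretase, the protease that cleaves Notch receptors within the membrane. The series title names AQP4, autophagy and edema, and the comparison asked here was whether mRNA of the channel and of its anchor differed between the genotypes.

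The libraries were similar in depth. Levels are in FPKM, fragments scaled by transcript length and by library size, and the smallest steps between FPKM values implied 25123100 to 26809300 fragments in cKO libraries and 20251900 to 24872600 in Control libraries. *Psenen* was 3.56, 3.90 and 4.03 FPKM in cKO libraries, against 6.35, 6.86 and 7.32 FPKM in Control libraries (log2 difference -0.82, limma adjusted p = 0.00441), in the direction of the labels. The defining astrocyte gene *Aldh1l1* was found in all libraries, at 1.81, 1.57 and 3.06 FPKM in cKO and 12.8, 12.03 and 13.0 FPKM in Control cortex. Library cKO replicate 3 stood apart from the other cKO libraries. Its summed FPKM was 358 over 16 astrocyte genes and 901 over 10 genes of choroid plexus and ependyma, against 203 to 208 and 190 to 333 in cKO replicates 2 and 1. The results for *Aqp4* and *Dtna* are given with and without it.

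Among the 9 genes, *Aqp4* and *Dtna* fell in cKO cortex and none rose. The test was limma on log2(FPKM + 0.1) over all tested genes with Benjamini-Hochberg adjustment, called at an adjusted p under 0.05, and it called 5.53% of all tested genes, 1.87% lower and 3.67% higher. At an unadjusted p under 0.05 the same 2 genes were lower and 0 were higher, where 22.9% of all tested genes passed, 6.33% lower and 16.5% higher. A count of 2 of 9 at that threshold is near the share of all tested genes that passed in either direction. Both genes were lower, and the share of all tested genes that passed in that direction was smaller, at 6.33%. The median log2 difference over the 9 genes was -0.05, beside 0.07 over all tested genes. The 2 called genes stood near the end of the call list, *Dtna* at rank 714 and *Aqp4* at rank 717 of 783 by p. The cKO libraries lay below every Control library for the same 2 of the 9 genes, as they did for 8.17% of all tested genes. They lay above every Control library for 0 of the 9, beside 21.5% of all tested genes.

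**Figure D1:**
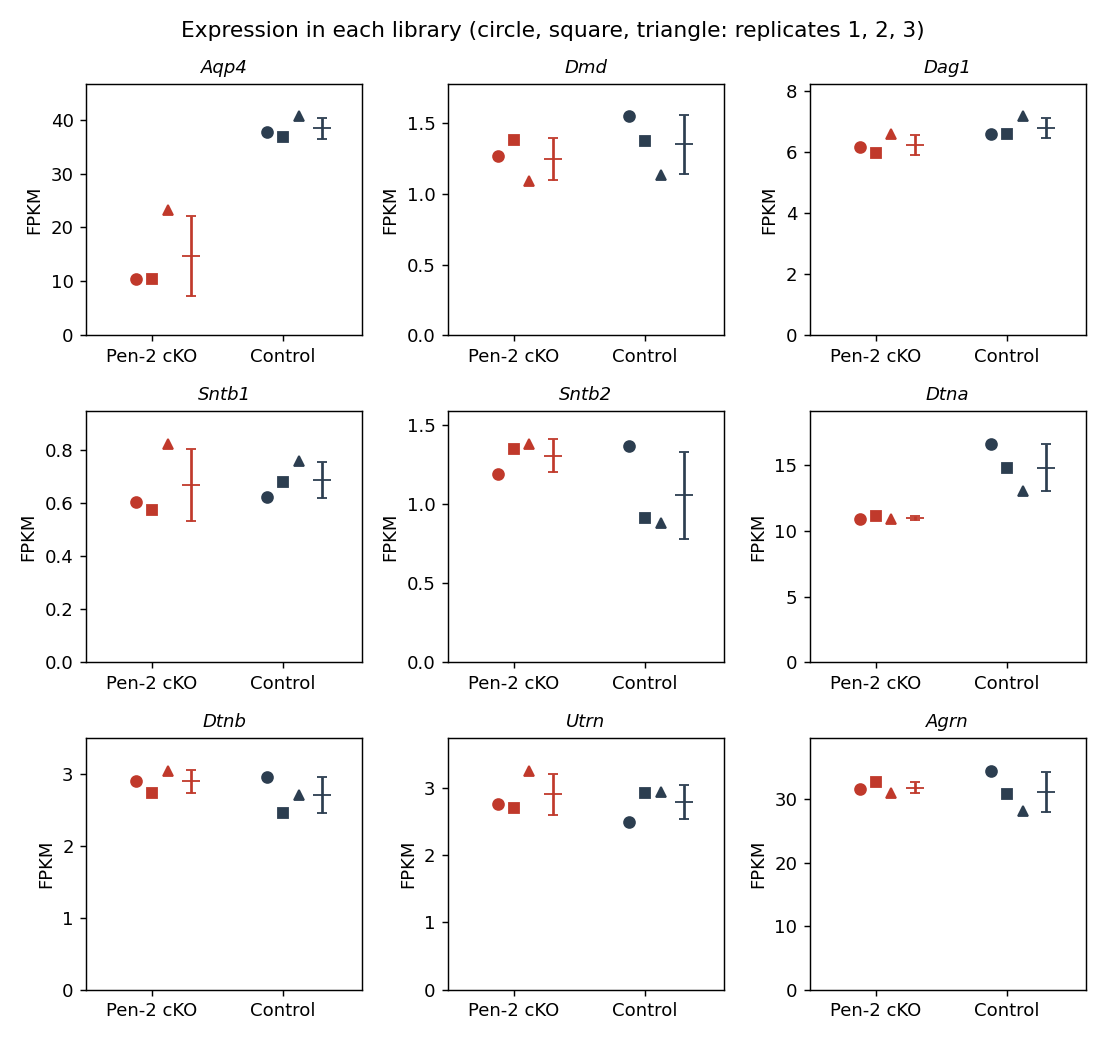
FPKM (y axis, from 0, separate scale for each gene) of the 9 genes in each Pen-2 cKO and Control library; symbols mark replicates 1, 2 and 3, and the bar beside them gives mean and SD. Only *Aqp4* and *Dtna* show cKO libraries all below the Control libraries, and *Aqp4* in cKO replicate 3 reaches 23.2 FPKM against 10.5 and 10.4 FPKM in the other cKO libraries.

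*Aqp4* encodes the channel itself (ENSMUSG00000024411, mm10 chromosome 18, 15389394 to 15403684, minus strand). It was 10.5, 10.4 and 23.2 FPKM in cKO libraries 1, 2 and 3, against 37.8, 36.7 and 40.6 FPKM in Control libraries 1, 2 and 3. All cKO libraries were below all Control libraries, but cKO replicate 3 lay well above the other cKO libraries, while the Control libraries lay close together. The cKO mean was 38.3% of the Control mean (14.7 ± 7.38 against 38.4 ± 1.99 FPKM, SD, n = 3 each). The log2 difference was -1.49 (SE 0.31, 95% interval -2.22 to -0.75, limma adjusted p = 0.0462). Without cKO replicate 3 the log2 difference was -1.87 and the limma adjusted p was 0.000122. Without any 1 of the other 5 libraries the call ended, with limma adjusted p-values of 0.0880 to 0.143. It also ended with no filter on low values (adjusted p = 0.0583) and with no mean-variance trend (adjusted p = 0.0607). In bulk tissue, fewer astrocytes and less *Aqp4* RNA per astrocyte cannot be told apart.

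The sums of astrocyte and endfoot genes were lower in cKO cortex, as *Aqp4* was, and the choroid plexus and ependyma sum was higher. Of the 16 astrocyte genes, 12 fell and none rose (10 to 14 lower with 1 library left out), with a median log2 difference of -1.78. By smallest p they were led by *Aldoc*, a glycolytic enzyme gene (log2 difference -2.41), *Cldn10*, a claudin gene (-2.36), *Ndrg2* (-1.36) and *Slc6a11*, the gene of a GABA transporter (-1.15), each with a limma adjusted p of 0.000544. Summed FPKM of the 16 astrocyte genes was 203 to 358 in cKO libraries and 593.5 to 683 in Control libraries, and cKO replicate 3 was the highest cKO library in this sum as in *Aqp4*. The choroid plexus and ependyma sum was 190 to 901 FPKM in cKO libraries and 40.1 to 188 FPKM in Control libraries. None of the 10 choroid plexus and ependyma genes was at 0 in all libraries, and the sum was mostly *Ttr*, the choroid plexus transthyretin gene (324, 182 and 877 FPKM in cKO, 33.1, 103.5 and 178 FPKM in Control libraries). Ependymal cells also carry AQP4, and *Foxj1*, a gene of ciliated cells, was 2.08, 2.48 and 5.50 FPKM in cKO and 2.49, 1.54 and 2.45 FPKM in Control libraries. The other ependymal genes of the list had negative log2 differences that did not pass. *Ccdc153* was 0.147, 0.670 and 2.27 FPKM in cKO and 0.681, 1.23 and 1.67 FPKM in Control libraries (log2 difference -0.68), and *Tmem212* was 0.111, 0.268 and 2.60 FPKM in cKO and 1.03, 1.10 and 1.46 FPKM in Control libraries (-1.11). All 3 ependymal genes were highest in cKO replicate 3. Among Control libraries the choroid plexus and ependyma sum ranged from 40.1 to 188 FPKM while *Aqp4* ranged from 36.7 to 40.6 FPKM. The part of these cells in the *Aqp4* level of cKO replicate 3 was not tested.

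**Figure D2:**
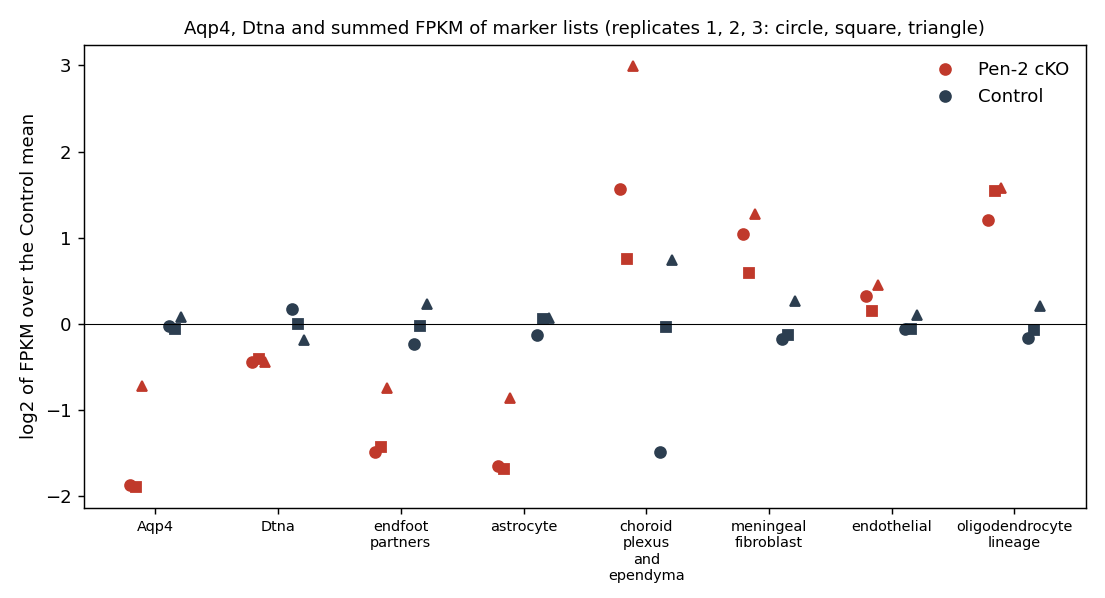
log2 of FPKM over the Control mean (y axis) for *Aqp4*, *Dtna* and the summed FPKM of 6 gene lists (x axis), with each Pen-2 cKO and Control library as a point marked by replicate. The cKO points of *Aqp4* are spread like those of the endfoot and astrocyte sums, with replicate 3 highest, while the 3 cKO points of *Dtna* nearly coincide.

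Dystrobrevins link syntrophins to dystrophin. *Dtna*, which encodes α-dystrobrevin (ENSMUSG00000024302, chromosome 18, 23415415 to 23659714, plus strand), was 10.9, 11.1 and 10.9 FPKM in cKO libraries, against 16.6, 14.8 and 13.0 FPKM in Control libraries. Here the cKO libraries were almost equal and the Control libraries spread, the reverse of *Aqp4*, and cKO replicate 3 did not stand apart. The cKO mean was 74.2% of the Control mean (11.0 ± 0.126 against 14.8 ± 1.80 FPKM, SD, n = 3 each), a log2 difference of -0.42 (SE 0.09, 95% interval -0.64 to -0.20, limma adjusted p = 0.0461). Without Control replicate 3 the limma adjusted p was 0.0204. Without any other 1 library, cKO replicate 3 included (adjusted p = 0.0998), the call ended, with limma adjusted p-values of 0.0966 to 0.144. It ended too with equal sums (adjusted p = 0.0726), with no filter on low values (adjusted p = 0.0798) and with no mean-variance trend (adjusted p = 0.0818). α-Dystrobrevin is known from astrocyte endfeet at vessels, and the part of the lower astrocyte marker sum in the *Dtna* level was not tested.

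*Dtnb* encodes β-dystrobrevin, the form known from neurons (ENSMUSG00000071454, chromosome 12, 3572381 to 3781796, plus strand). It was 2.91, 2.74 and 3.05 FPKM in cKO libraries, against 2.96, 2.46 and 2.71 FPKM in Control libraries, and the groups overlapped. The log2 difference was 0.10 (95% interval -0.17 to 0.36, limma adjusted p = 0.666). The ratio of *Dtnb* to *Dtna* within a library was 0.266, 0.246 and 0.280 in cKO libraries and 0.178, 0.167 and 0.208 in Control libraries. The ratio was thus above every Control library in each cKO library, a log2 difference of 0.52. The exact two-sided permutation p was 0.1, the smallest that 3 against 3 can give, and 0.139 after Benjamini-Hochberg adjustment over the 18 ratios computed. Every cKO library was below every Control library for *Dtna*, so a gene at 1 level in all libraries would show the same lack of overlap.

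*Dmd* encodes dystrophin, the rod that ties the complex to the actin cytoskeleton (ENSMUSG00000045103, chromosome X, 82948870 to 85206141, plus strand). It was 1.27, 1.38 and 1.09 FPKM in cKO libraries, against 1.55, 1.37 and 1.13 FPKM in Control libraries. The groups overlapped, and the log2 difference of -0.10 had a 95% interval of -0.49 to 0.29 (limma adjusted p = 0.768). The gene makes products of very different length, and Dp71, a short product from an internal start, is the form known to prevail at glial endfeet. The GENCODE M21 annotation lists coding transcripts of 14910, 4438 and 1858 bases for *Dmd*, the longest from position 82948903 and the other 2 from position 85048413. The deposited value is 1 number per gene, so a change in the short products alone cannot be told apart from one in the full-length product, and FPKM of a gene with such unequal products depends on the length the authors used.

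The RefSeq start windows of *Dmd* (build GRCm38.p6, 250 bases before to 50 after a start, plus strand) show how unlike these starts are. The first window, at chrX:82948620-82948919, has 45.7% GC and 2 CpG. The internal window, at chrX:85048045-85048344, has 62.7% GC and 14 CpG and lies just before the start of the short coding transcripts. Over all 32851 windows the medians were 52.7% GC and 7 CpG. Capitals mark TGGGAA or its reverse complement, the core letters bound by RBPJ, the DNA-binding partner of the Notch domain that γ-secretase releases.
Dmd first start: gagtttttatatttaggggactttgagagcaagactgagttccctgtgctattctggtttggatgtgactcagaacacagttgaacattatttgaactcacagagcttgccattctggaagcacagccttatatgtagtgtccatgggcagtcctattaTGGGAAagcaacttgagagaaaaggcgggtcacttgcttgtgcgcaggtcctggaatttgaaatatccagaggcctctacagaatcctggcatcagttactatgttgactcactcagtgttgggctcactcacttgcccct
Dmd internal start: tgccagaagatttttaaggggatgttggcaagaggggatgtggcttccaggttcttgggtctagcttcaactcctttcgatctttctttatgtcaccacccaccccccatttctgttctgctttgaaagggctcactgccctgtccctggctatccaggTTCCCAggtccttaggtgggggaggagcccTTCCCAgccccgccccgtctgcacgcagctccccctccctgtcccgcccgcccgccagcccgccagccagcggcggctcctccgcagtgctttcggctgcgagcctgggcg
The first window held the motif once and the internal window 2 times, both times as the reverse complement. The motif, searched on both strands, was in 3 of 11 windows of the 5 genes that had one (*Agrn*, *Dag1*, *Utrn*, *Dtnb* and *Dmd*), beside 25.6% of all windows, a description of these letters alone.

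*Utrn* encodes utrophin, the autosomal relative of dystrophin, known from endothelium and from the endfoot region (ENSMUSG00000019820, chromosome 10, 12382188 to 12861735, minus strand). It was 2.76, 2.70 and 3.25 FPKM in cKO libraries, against 2.49, 2.93 and 2.94 FPKM in Control libraries. The log2 difference was 0.06 (95% interval -0.23 to 0.35, limma adjusted p = 0.831), and its sign turned with median-ratio scaling (-0.01) and without cKO replicate 3 (-0.02) or Control replicate 1 (-0.02). The ratio of *Utrn* to *Dmd* was 2.18, 1.95 and 2.98 in cKO libraries and 1.61, 2.13 and 2.60 in Control libraries, with overlapping groups (exact permutation p = 0.5, two-sided).

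*Dag1* encodes dystroglycan, whose extracellular part binds agrin and laminin and whose tail binds dystrophin (ENSMUSG00000039952, chromosome 9, 108204634 to 108263958, minus strand). It was 6.14, 5.94 and 6.59 FPKM in cKO libraries, against 6.59, 6.57 and 7.15 FPKM in Control libraries. Of the cKO libraries, 2 were below every Control library and replicate 3 lay within the Control range. The log2 difference was -0.12 (95% interval -0.31 to 0.07, limma adjusted p = 0.433). The estimate for *Dtna*, -0.42, lay outside this interval, but the *Dtna* interval of -0.64 to -0.20 overlapped it. The difference between *Dag1* and *Dtna* was not tested. The ratio of *Dmd* to *Dag1* was 0.207, 0.233 and 0.165 in cKO libraries and 0.235, 0.209 and 0.158 in Control libraries (exact permutation p = 1.0, two-sided). A *Dag1* start window (GRCm38.p6, chr9:108263909-108264208, minus strand) is shown because it held the motif once, and it has 69.7% GC and 30 CpG. A second, overlapping *Dag1* window held no match.
Dag1 start: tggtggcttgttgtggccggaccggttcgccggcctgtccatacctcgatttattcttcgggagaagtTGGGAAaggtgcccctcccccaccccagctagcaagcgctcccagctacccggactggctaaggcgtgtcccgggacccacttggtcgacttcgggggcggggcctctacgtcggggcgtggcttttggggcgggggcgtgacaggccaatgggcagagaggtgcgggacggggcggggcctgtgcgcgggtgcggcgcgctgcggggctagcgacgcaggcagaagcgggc

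The syntrophins are adaptors, and the β forms were the members measured here. *Sntb1* (ENSMUSG00000060429, chromosome 15, 55638843 to 55906949, minus strand) was 0.606, 0.574 and 0.824 FPKM in cKO libraries, against 0.625, 0.679 and 0.760 FPKM in Control libraries. Of the cKO libraries, 2 lay below every Control library and replicate 3 above every one. Its log2 difference was -0.05 (95% interval -0.51 to 0.41, limma adjusted p = 0.917), with a sign that turned without cKO replicate 1 (0.01), cKO replicate 2 (0.04) or Control replicate 3 (0.02). *Sntb1* was the lowest of the 9 genes, with 17 to 66 fragments implied in its lowest library, depending on which coding transcript the fragments came from. The transcript lengths are those of GENCODE M21, whose coordinates for *Sntb1* differ from the deposited ones. *Sntb2* (ENSMUSG00000041308, chromosome 8, 106935750 to 107014192, plus strand) was 1.19, 1.35 and 1.38 FPKM in cKO libraries, against 1.37, 0.915 and 0.882 FPKM in Control libraries. The overlap came from Control replicate 1, which lay among the cKO libraries. The log2 difference of 0.31 was the highest of the 9 and did not pass (95% interval -0.15 to 0.76, limma adjusted p = 0.398). The ratio of *Sntb2* to *Sntb1* was 1.96, 2.35 and 1.68 in cKO libraries and 2.19, 1.35 and 1.16 in Control libraries, with overlapping groups (exact permutation p = 0.3, two-sided).

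*Agrn* encodes agrin, a heparan sulfate proteoglycan of basement membranes that binds dystroglycan and is needed for the ordered packing of AQP4 in endfeet (ENSMUSG00000041936, chromosome 4, 156165290 to 156197488, minus strand). It was 31.6, 32.7 and 31.0 FPKM in cKO libraries, against 34.4, 30.8 and 28.2 FPKM in Control libraries, so all cKO libraries lay within the Control range. The log2 difference was 0.03 (95% interval -0.15 to 0.22, limma adjusted p = 0.847), and its sign turned with median-ratio scaling (-0.04), with upper-quartile scaling (-0.03) and without Control replicate 3 (-0.04). Neurons and endothelium also make agrin, and the gene-level value does not separate its isoforms.

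**Figure D3:**
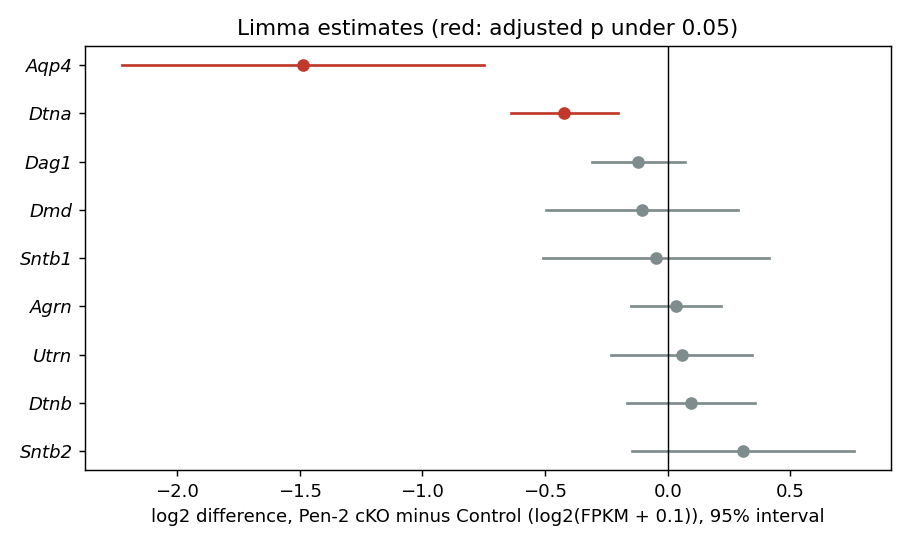
log2 difference of Pen-2 cKO minus Control (x axis) for the 9 genes, with 95% intervals from limma; red marks an adjusted p under 0.05. The intervals of *Aqp4* and *Dtna* lie below 0, and those of the other 7 genes include 0.

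The order of the levels in FPKM, which is scaled by length, differed between the groups at the top and for *Sntb2* and *Dmd*. Coding transcripts of a gene differ widely in length, from 359 to 6295 bases for *Dtna* and from 660 to 12382 bases for *Utrn*, so the order across genes depends on the lengths the authors used. The lengths given here are those of GENCODE M21, whose coordinates for *Dtna* and *Utrn* differ from the deposited ones. In cKO cortex *Agrn* was highest (mean 31.8 FPKM), followed by *Aqp4* (14.7), *Dtna* (11.0), *Dag1* (6.22), *Utrn* (2.90), *Dtnb* (2.90), *Sntb2* (1.31), *Dmd* (1.25) and *Sntb1* (0.668). In Control cortex *Aqp4* was highest (38.4 FPKM), followed by *Agrn* (31.1), *Dtna* (14.8), *Dag1* (6.77), *Utrn* (2.79), *Dtnb* (2.71), *Dmd* (1.35), *Sntb2* (1.06) and *Sntb1* (0.688). Neighbours whose libraries overlapped were *Aqp4* and *Dtna* in cKO cortex, and *Utrn* and *Dtnb* as well as *Dmd* and *Sntb2* in cKO and Control cortex alike.

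The anchor genes were next set against *Aqp4* within each library. For all 8 the ratio to *Aqp4* was higher in each cKO library than in each Control library. The ratio of *Agrn* to *Aqp4* was 3.02, 3.16 and 1.33 in cKO libraries, against 0.911, 0.839 and 0.694 in Control libraries. That of *Dag1* to *Aqp4* was 0.586, 0.574 and 0.284 in cKO libraries, against 0.174, 0.179 and 0.176 in Control libraries. For *Dtna*, which fell as well, it was 1.04, 1.07 and 0.469 in cKO libraries, against 0.440, 0.402 and 0.321 in Control libraries. The log2 differences of the 8 ratios ran from 1.07 (*Dtna*) to 1.79 (*Sntb2*), each with an exact two-sided permutation p of 0.1, the smallest possible with 3 against 3 libraries, and 0.139 after Benjamini-Hochberg adjustment over the 18 ratios computed. The 8 ratios share the *Aqp4* values, so they are not independent. Every cKO library was below every Control library for *Aqp4*, so a gene at 1 level in all libraries would show the same lack of overlap. The share of all tested genes with such a ratio was not computed, so the count is not a result particular to the anchor genes. No ratio could reach a p under 0.05 in this design.

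**Figure D4:**
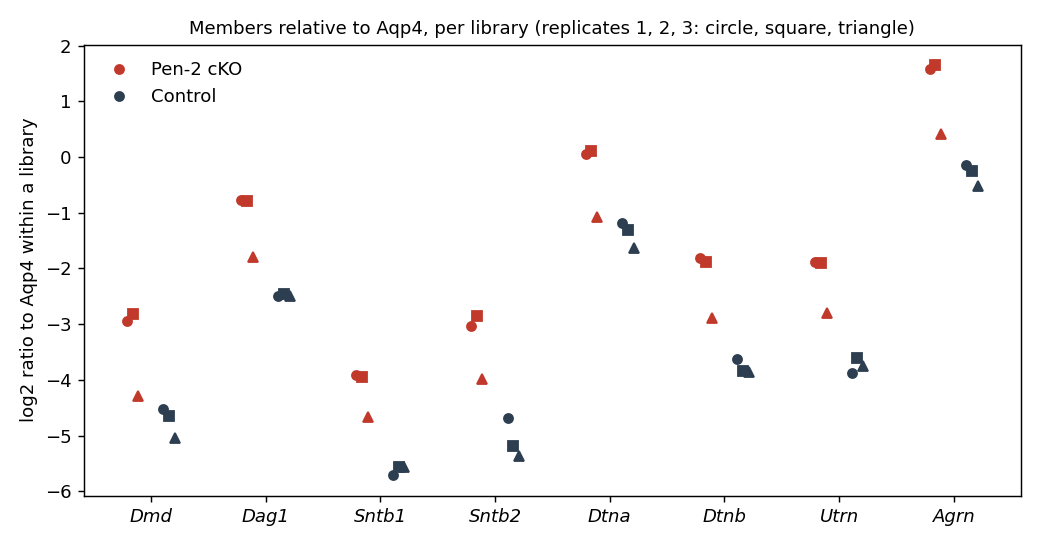
log2 ratio of each of 8 genes to *Aqp4* within a library (y axis) for Pen-2 cKO and Control libraries, marked by replicate. Each cKO point lies above the Control points of its gene, and cKO replicate 3 lies nearest to them.

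*Aqp4* was also set against 3 astrocyte genes, and its ratio to 2 of them was higher in every cKO library than in every Control library. The ratio of *Aqp4* to *Aldh1l1*, a folate enzyme gene used as an astrocyte marker, was 5.80, 6.60 and 7.58 in cKO libraries, against 2.96, 3.06 and 3.12 in Control libraries (log2 difference 1.07, exact permutation p = 0.1, two-sided). Relative to *Slc1a3*, the gene of the glutamate transporter GLAST, *Aqp4* was 1.34, 1.58 and 1.79 in cKO libraries, against 1.11, 1.12 and 1.19 in Control libraries (log2 difference 0.45, exact permutation p = 0.1, two-sided). In these ratios cKO replicate 3 was the highest library and lay next to cKO replicate 2. The direction depends on the denominator. *Aldh1l1* had the largest fall of the 16 astrocyte genes (log2 difference -2.56) and *Slc1a3* had -1.93, beside -1.49 for *Aqp4* and a list median of -1.78. Other genes of that list, such as *Ndrg2* (-1.36), *Slc6a11* (-1.15) and *Gfap* (-0.71), had smaller differences than *Aqp4*, and ratios to them were not computed. Relative to *Slc1a2*, the gene of the transporter GLT-1, the groups overlapped (1.70, 0.490 and 1.11 in cKO libraries, 3.05, 0.695 and 0.670 in Control libraries, exact permutation p = 0.8, two-sided). *Slc1a2* itself was lowest in replicate 1 of each group (6.18 FPKM in cKO and 12.4 FPKM in Control cortex, against 21.0 to 21.1 and 52.9 to 60.6 FPKM in the others). The ratio of *Dtna* to *Aldh1l1* was 6.04, 7.09 and 3.56 in cKO libraries, against 1.30, 1.23 and 1.0 in Control libraries. Its ratio to *Slc1a3* was 1.40, 1.69 and 0.840 in cKO libraries, against 0.488, 0.451 and 0.381 in Control libraries, again without overlap. The exact two-sided permutation p was 0.1 for each, and 0.139 after Benjamini-Hochberg adjustment over the 18 ratios. *Aldh1l1* and *Slc1a3* were themselves lower in every cKO library than in every Control library. A gene at 1 level in all libraries would therefore show the same lack of overlap. The ratio of *Dtna* to *Slc1a2* overlapped between the groups (1.77, 0.527 and 0.519 in cKO libraries, 1.34, 0.279 and 0.215 in Control libraries, exact permutation p = 0.5).

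Other genes of the pathway were read from 5 lists, of which the endfoot list shares *Slc1a2* and *Gjb6* with the astrocyte list. Partners of AQP4 at the endfoot were lower in part: 4 of 10 tested genes fell and none rose, with a median log2 difference of -1.19. They were *Slc4a4*, a bicarbonate cotransporter (3.13, 3.07 and 5.01 FPKM in cKO, 10.3, 10.2 and 10.7 FPKM in Control libraries), *Mlc1* (log2 difference -1.87), *Hepacam* (-1.69) and *Kcnj10*, the gene of the Kir4.1 potassium channel (-1.14). The count was 2 to 6 when any 1 library was left out. Of 9 tested agrin receptor and protease genes, 2 fell and none rose (0 to 3 lower with 1 library left out). *Lrp4*, which encodes a receptor for agrin that is also made by astrocytes, was 0.791, 0.781 and 1.12 FPKM in cKO libraries, against 1.93, 2.10 and 2.09 FPKM in Control libraries. Its log2 difference was -1.12 (SE 0.17, limma adjusted p = 0.0130). *Timp3*, an inhibitor of matrix metalloproteinases, was 5.74, 5.01 and 6.82 FPKM in cKO libraries, against 8.65, 9.37 and 8.81 FPKM in Control libraries (log2 difference -0.61, limma adjusted p = 0.0291). The ligand *Agrn* did not pass while the receptor *Lrp4* fell, and the difference between them was not tested.

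The remaining lists held no called gene by limma. Of 14 other dystrophin complex genes (syntrophins, sarcoglycans and binding partners), 2 were lower and 1 higher at an unadjusted p under 0.05, and the median log2 difference was 0.04, so the share passing was no larger than the 22.9% over all tested genes. *Sgcb*, which encodes β-sarcoglycan, was 18.7 ± 0.560 FPKM in cKO and 21.0 ± 1.41 FPKM in Control cortex, and *Mast1*, a syntrophin-binding kinase gene, was 22.6 ± 2.05 FPKM in cKO and 24.2 ± 1.80 FPKM in Control cortex (SD, n = 3 each). Of 17 genes for the enzymes that build the sugar chain of dystroglycan, on which its binding to agrin and laminin depends, 0 were lower and 3 higher at an unadjusted p under 0.05, beside 16.5% of all tested genes higher, with a median of 0.08. The most abundant were *B4gat1* (50.4 ± 2.71 FPKM in cKO, 53.2 ± 0.949 FPKM in Control cortex) and *Large*, a glycosyltransferase gene (20.9 ± 0.485 FPKM in cKO, 21.0 ± 0.317 FPKM in Control cortex). The 95% interval of the *Large* log2 difference was -0.13 to 0.11. Of 14 dystroglycan ligands, 0 were lower and 5 higher at an unadjusted p under 0.05, beside 16.5% of all tested genes higher, with a median of 0.25 beside 0.07 over all tested genes. *Nrxn2*, which encodes a neurexin, was 25.7 ± 0.539 FPKM in cKO and 27.9 ± 2.52 FPKM in Control cortex, and *Vcan*, which encodes the matrix proteoglycan versican, was 8.57 ± 0.425 FPKM in cKO and 6.90 ± 1.03 FPKM in Control cortex.

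**Figure D5:**
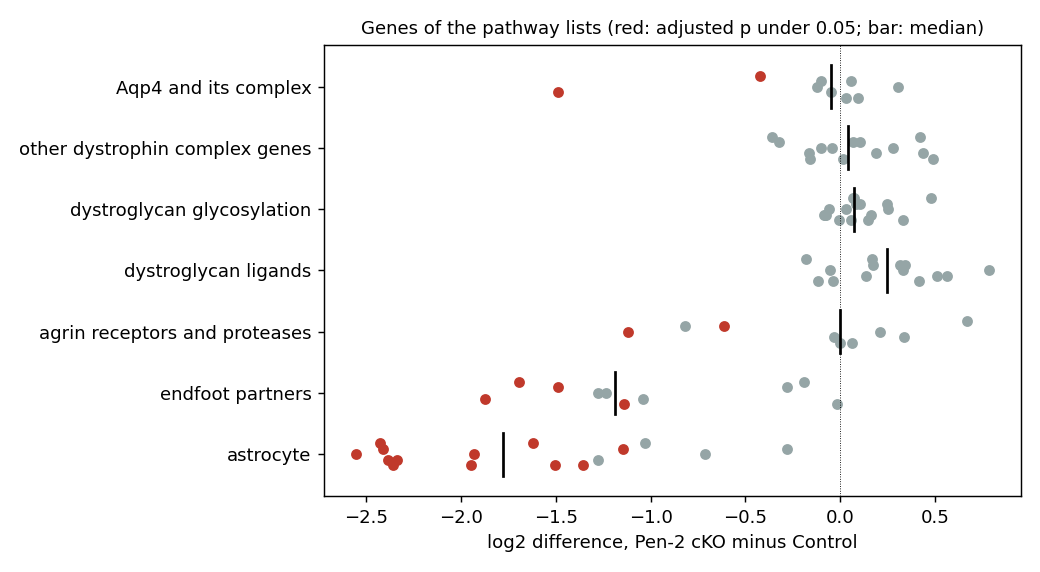
log2 difference of Pen-2 cKO minus Control (x axis) for each tested gene of 7 lists (rows), red where the adjusted p was under 0.05, with a bar at the list median. The astrocyte and endfoot lists have medians of -1.78 and -1.19, while the complex and the lists of its glycosylation and other components have medians between -0.05 and 0.08. The median is 0.25 for the dystroglycan ligands and -0.0016 for the agrin receptors and proteases.

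Several members are made outside astrocytes, and other cell types were measured beside them. The endothelial sum of 10 genes was 103 to 128 FPKM in cKO and 89.2 to 100.2 FPKM in Control libraries, with *Cdh5* the only gene called (higher; 0 to 2 higher with 1 library left out). The mural sum was 69.3 to 73.2 FPKM in cKO and 56.2 to 62.6 FPKM in Control libraries, with *Tagln* and *Abcc9* higher and *Notch3* lower of 9 tested (0 to 2 higher and 0 to 1 lower with 1 library left out). The meningeal sum was 80.0 to 129 FPKM in cKO and 47.2 to 63.7 FPKM in Control libraries, with 3 of 11 genes higher (*Dcn*, *Lum* and *Col3a1*; 1 to 3 with 1 library left out). The neuronal sum was 1641 to 1776 FPKM in cKO and 1971 to 2010 FPKM in Control libraries, with *Gad1* higher and *Tubb3* lower of 10 (0 to 1 each way with 1 library left out). Without *Tubb3*, its most abundant gene, the neuronal sum was 585, 623 and 515 FPKM in cKO libraries and 556, 553 and 652 FPKM in Control libraries, and the groups overlapped. The oligodendrocyte lineage sum was 351 to 455 FPKM in cKO and 136 to 175.5 FPKM in Control libraries, with 11 of 12 genes higher, led by *Gpr17* (log2 difference 1.84), *Olig2* (1.57), *Sox10* (1.97) and *Bcas1* (2.88). The microglial sum was 96.6 to 147 FPKM in cKO and 68.5 to 81.0 FPKM in Control libraries, with *Tyrobp* higher of 8 (0 to 1 with 1 library left out). Of 7 choroid plexus and ependyma genes tested, none was called (limma; 0 to 1 each way with 1 library left out), and 2 were higher at an unadjusted p under 0.05. None of the genes of these lists was at 0 in all libraries. Of 8 skeletal muscle genes, 2 were tested and neither was called, nor did they reach an unadjusted p under 0.05 (*Acta1* averaged 6.63 FPKM in cKO and 7.14 FPKM in Control cortex, *Myh3* 0.853 FPKM in cKO and 1.01 FPKM in Control cortex). The part of these cell types in the levels of *Utrn*, *Agrn*, *Sntb1* and *Sntb2* was not tested.

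The genes whose levels followed *Aqp4* most closely were ranked by Pearson's r of log2(FPKM + 0.1) over the 6 libraries, among the 12357 other tested genes that averaged 1 FPKM or more. The highest were *Gstm1*, a glutathione transferase gene (r = 0.996), *Ednrb*, an endothelin receptor gene (0.996), *Pla2g7* (0.995), *Nqo1* (0.994) and *E130114P18Rik* (0.993). *Gstm1* was 6.85, 6.07 and 12.8 FPKM in cKO libraries, against 18.7, 19.8 and 19.9 FPKM in Control libraries, with cKO replicate 3 between the groups as for *Aqp4*. Of the complex, *Dag1* followed it most closely (r = 0.881, rank 364), then *Dtna* (0.772, rank 704) and *Sntb1* (0.549, rank 1588), and *Sntb2* (-0.487), *Agrn* (-0.295) and *Dtnb* (-0.254) had negative values. *Sntb1* averaged under 1 FPKM (0.668 in cKO and 0.688 in Control cortex), so its rank is its place beside genes it was not among. The 6 points share 2 group levels, so these values are a description. After the group means were subtracted, the closest genes were *Slc4a4* (0.999), *Gsta4* (0.998), *Cyp2d22* (0.996), *Kif26b* (0.996) and *Ednrb* (0.995). In that measure r with *Aqp4* was 0.918 for *Sntb1*, 0.769 for *Dag1*, 0.741 for *Utrn*, -0.136 for *Dtna* and -0.636 for *Dmd*. Of the squared deviations of *Aqp4* from its group means, cKO replicate 3 made up 65.8% and the 3 Control libraries 0.0473%, 0.426% and 0.757%, so these values rest on the contrast of cKO replicate 3 with the other cKO libraries.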

How the data were processed

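Values are FPKM as deposited by the authors, per the file headers; the table is named for raw counts but holds decimals. Per the submitters' processing notes the genome was mm10; for the aligner, counter, annotation and strand use, the sources used here state nothing. The 6 per-library tables were identical to the series-wide table. Depth came from the steps between low values of genes with 1 GENCODE M21 transcript; multi-transcript genes gave no counts, so no count test was run. The authors' deposited q-values and group FPKM were used in the closing section alone.

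Genes with at least 0.5 FPKM in 3 libraries were tested with limma 3.58.1 (R 4.3.3; trend, robust, group as the only term) on log2(FPKM + 0.1), a scale that understates the change of low genes. Ratios were tested with exact permutation in SciPy 1.17.1. Steps were checked on simulated data. Symbols of 27 genes written as dates were restored by gene ID.

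The genes, lists and naming rule were chosen with earlier results of these data known. The rule named all 9 genes and, from each list, the called genes (at most 4, lowest p first), or the 2 most abundant genes where no gene was called; *Aldh1l1*, *Slc1a3* and *Slc1a2* entered as denominators of the ratios. *Ccdc153* and *Tmem212*, and the neuronal sum without *Tubb3*, were added after their values were seen. Gene coordinates are those of the deposited tables. The dystroglycan glycosylation list held older and newer symbols of the same genes, and 17 matched. Other filters, pseudocounts, scalings, limma options and thresholds, a replicate block and leaving out each library were tried as alternatives.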

Additional observations from a re-analysis of the deposited data

How the results depend on the processing

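*Aqp4*, *Dtna*, *Dag1* and *Dmd* stayed lower, and *Dtnb* and *Sntb2* higher, under all 17 alternatives. *Sntb1* was not tested at a filter of 1 FPKM. The *Aqp4* log2 difference lay between -1.87 and -1.29 when 1 library was left out, and was -1.49 with no filter on low values and with no mean-variance trend, where the call ended (adjusted p = 0.0583 and 0.0607, limma). Counts of lower genes of the complex, 2 in the analysis above, were 0 with no filter and with no trend, 1 with equal sums and with the replicate block, and 0 to 1 with 1 library left out. Over all genes, 519 were called higher and 264 lower (66.3% higher). Higher calls were 323 with no filter, 312 with median-ratio scaling (346 lower, 47.4% higher), 907 with equal sums (244 lower, 78.8% higher) and 1070 at a threshold of 0.1 (449 lower). Upper-quartile scaling gave 351 higher and 346 lower (50.4% higher). With 1 library left out, 135 to 582 were higher and 85 to 309 lower, and without cKO replicate 3 the calls were 330 and 309 (51.6% higher). Equal sums moved the median of all tested genes to 0.12. The cause of these shifts was not tested.

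Deviations of same-numbered libraries from their group means correlated at 0.06, 0.01 and 0.10. Replicates 1 and 3 of cKO correlated best with the Control library of the same number, and cKO replicate 2 with Control replicate 1 (0.06). With 3 libraries in a group, such correlations cannot decide whether replicate numbers pair the libraries. With the replicate block, 290 genes were higher and 166 lower, *Aqp4* had an adjusted p of 0.0349 and *Dtna* of 0.0763 (limma).

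Signs turned for small differences. *Agrn* was -0.0382 with median-ratio and -0.0251 with upper-quartile scaling, and lay between -0.0367 and 0.108 with 1 library left out. *Utrn* was -0.0121 with median-ratio scaling and lay between -0.0242 and 0.106, and *Sntb1* between -0.188 and 0.0394. With 1 library left out, the log2 ratio differences lay between -0.605 and 0.51 for *Aqp4* to *Slc1a2*, between -0.0135 and 0.313 for *Utrn* to *Dmd*, and between -0.136 and 0.144 for *Dmd* to *Dag1*. No p of a ratio could fall below 0.2 with 1 library left out.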

Other observations

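The authors' deposited table also gives 1 FPKM value per group, and for *Aqp4* its cKO value was not that of the libraries. The authors' deposited table lists *Aqp4* at 30.7 FPKM in Pen-2 cKO and 39.6 FPKM in Control, with a q-value of 0.813, while the 3 cKO libraries in the same table ranged from 10.4 to 23.2 FPKM. In the authors' deposited table the cKO value also lay above all 3 cKO libraries for *Sntb1* (0.850 FPKM) and *Sntb2* (1.46 FPKM) and below them for *Agrn* (29.4 FPKM). For *Dtna*, in contrast, the authors' deposited table gives 11.1 FPKM in cKO and 14.6 FPKM in Control, both within the libraries, and a q-value of 0.0248. In the authors' deposited table the call entry of *Dtna* is nevertheless a hyphen, the same as for *Aqp4* and every other gene of the complex. Over the 14147 tested genes, the cKO value of the authors' deposited table lay outside the range of the 3 cKO libraries for 32.4% (2708 above and 1880 below), and the Control value outside that of the Control libraries for 8.24% (606 above and 560 below). How the group values were made is not stated in the sources used here, and the cause of the difference was not tested.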
